A study of Mus musculus with 8 samples.

Results

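The nuclear genes for the subunits of respiratory complexes II to V were examined in skeletal muscle RNA from 8 immobilized mice given K14Q MOTS-c. The genes were taken as all protein-coding genes whose symbol begins with Uqcr, Cox4 to Cox8 or Atp5 or is Sdha, Sdhb, Sdhc, Sdhd, Cyc1 or Cycs, which gave 50 gene identifiers out of 55487 in the table. They comprise 4 genes of complex II, 9 of complex III, cytochrome c, 18 of complex IV and 18 of complex V. The 50 identifiers carry 49 symbols, since Atp5o names both the gene itself and a longer read-through model (ENSMUSG00000116933) that shares 243 of its 530 exon bases with it and 287 with Donson. A total of 47 had at least 10 reads in every library, out of 15135 such genes in all, and the other 3 (Cox6b2, Cox7b2 and Cox8c) are given with their paralogues.

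All 8 mice were male C57BL/6J animals aged 10 weeks with both hindlimbs in casts for 8 days, during which K14Q MOTS-c was injected intraperitoneally at 15 mg/kg/day in 2 doses per day. MOTS-c is a peptide encoded within the mitochondrial 12S ribosomal RNA gene, and K14Q is its natural variant with glutamine in place of lysine. All libraries share this treatment, this casting and this strain, and mice with free limbs or given the WT peptide were not analysed here, so no effect of the peptide or of casting can be read from these values. Each library is whole muscle from 1 mouse. The sample labels name vastus lateralis whereas the study's methods name gastrocnemius, and all 6 fast fibre markers, with Myh4 holding the most reads, were abundant in every library. Of the 3 cardiac markers, Nppa had 0 to 1 read and Tnni3 0 to 11 reads, whereas the myosin gene Myh6 had 738 to 1620 reads in every library.

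Oxidative phosphorylation couples the flow of electrons to the synthesis of ATP in the mitochondrial inner membrane. Complex II (succinate dehydrogenase) feeds electrons from the citric acid cycle into ubiquinone, complex III passes them to cytochrome c, complex IV (cytochrome c oxidase) reduces oxygen with them, and complex V (ATP synthase) makes ATP from the proton gradient. Complex II is encoded entirely in the nucleus, whereas complexes III, IV and V combine nuclear subunits with a few encoded by mitochondrial DNA. Several complex IV subunits exist as a pair of isoforms, 1 typical of heart and skeletal muscle and 1 found in most tissues.

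The recovered depth was 23985356 to 33012497 reads per library, and values between mice are compared as the deposited normalized counts, which are reads divided by 1 size factor per library. Mouse 8 stood apart from the other libraries. It held the highest value of 2728 and the lowest of 3133 of all 15135 genes, and the summed level of 7 marker lists was lowest in it. These were fibroblasts (8 of 8 markers past 10 reads, summed 10294 to 19186 normalized counts over the mice), tendon (4 of 5, 342 to 3224), adipocytes (5 of 6, 612 to 2187), blood (3 of 3, 2959 to 12062), macrophages (6 of 6, 1320 to 3168), endothelium (4 of 4, 3020 to 4679) and smooth muscle (3 of 3, 1305 to 2647). The summed slow fibre markers (6 of 6, 11126 to 21931), fast fibre markers (6 of 6, 1834156 to 3696245) and cardiac list (1 of 3, 672 to 1722, nearly all Myh6) were lowest in mouse 3, satellite cell markers (2 of 2, 67.1 to 117) in mouse 4, and Schwann cell (3 of 3, 1332 to 3442) and brown adipocyte markers (1 of 3, 11.9 to 28.4, with Ucp1 at 0 to 1 read) in mouse 5. In whole muscle, fewer cells of a type and less RNA per cell cannot be told apart, and the part these lists have in the results was not tested.

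Levels of different genes were compared per length, as reads per kb of the principal transcript scaled to a sum of 1000000 per library, which is the scale of every level in the next 4 paragraphs. The order depends on the transcript length assumed, since 13 of 42 neighbour pairs changed order with the union of exons and 12 with the median coding transcript, and with the union of exons 27 of 47 mean levels stayed within 1.5 times of their value. In complex II all 3 steps of the order Sdha, Sdhb, Sdhd, Sdhc exceeded the spread between mice (exact sign-flip permutation test over 8 mice, two-sided, Benjamini-Hochberg over 42 neighbour pairs, adjusted p = 0.0117 for each, 8 of 8 mice). Sdha (ENSMUSG00000021577, chromosome 13, 74322254 to 74350280 of GRCm38), the flavoprotein that oxidizes succinate, had a level of 181 in the lowest mouse, 226 in the median and 243 in the highest. Sdhc, which anchors the complex in the membrane with Sdhd, had 33.5, 48.9 and 52.9. The ranges of Sdhb (103 to 172) and Sdhd (66.8 to 115) overlapped between mice although Sdhb was higher within each mouse, whereas Sdha lay above and Sdhc below all other values of the complex. Only the top place of Sdha held at every length tried, since the mean level of Sdhc was 151 with the median coding transcript, above Sdhb (121) and Sdhd (78.9), and Sdhd (111) was above Sdhb (86.4) with the union of exons.

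By the principal transcripts complex III was led by Uqcrb, a small subunit near the ubiquinone site, at 308, 376 and 450 in the lowest, median and highest mouse. It exceeded the next gene, the hinge protein gene Uqcrh, by 0.64 ± 0.10 on the log2 scale (SD, n = 8; exact permutation test, adjusted p = 0.0117). With the median coding transcript Uqcrc1 led instead, at a mean of 488 against 312 for Uqcrb. Of the 8 neighbour pairs, 3 did not differ beyond their spread, namely Uqcr10 against the core gene Uqcrc1 (adjusted p = 0.328, exact permutation test over n = 8), Uqcrc1 against the Rieske iron-sulphur gene Uqcrfs1 (0.159) and Uqcr11 against the core gene Uqcrc2 (0.883). The lowest level was that of Uqcrq, at 43.8, 59.3 and 77.8. Its transcript length decides this place, since the mean level of 59.8 became 214 with the shortest principal transcript. Cycs (chromosome 6, 50562563 to 50566538), the mobile carrier between complexes III and IV, had 84.7, 106 and 127.

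In complex IV, with reads assigned to pseudogenes left out, the highest level was that of Cox6a2 (ENSMUSG00000030785), the heart and muscle isoform of subunit VIa. It was at 440 in the lowest mouse, 490 in the median and 538 in the highest. Cox4i1, the ubiquitous isoform of subunit IV, followed at 360, 421 and 508, lower in 8 of 8 mice (log2 difference 0.21 ± 0.12 SD, n = 8; exact permutation test, adjusted p = 0.0117). Cox6c, Cox7c and Cox5a came next, each below the one before it by 0.16 on the log2 scale. Only Cox8b against Cox6b1 (log2 difference 0.01 ± 0.09 SD) did not differ beyond its spread among the 14 neighbour pairs of this complex (exact permutation test, n = 8, adjusted p = 0.848). The bottom of the order was taken by Cox8a, Cox6a1 and Cox4i2, all of them isoforms of a more abundant gene. Cox6a2 stayed first and these 3 stayed last with each of the other 3 lengths tried. The order between them did not hold with the union of exons, where the mean level was 280 for Cox8b, 247 for Cox4i1, 191 for Cox7c, 111 for Cox5a and 63.2 for Cox6c. Pseudogenes that match Cox7c and Cox6c held 94.5% and 26.9% as many normalized counts as these genes, and none matched Cox6a2 or Cox4i1. The top place of Cox6a2 and the steps down to Cox5a therefore hold only for reads as they were assigned. Cox4i2 had 0.844, 0.994 and 1.60, and rested on as few as 11 reads.

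With reads assigned to pseudogenes left out, complex V was led by the catalytic subunit genes. Atp5b (beta) was at 659, 937 and 1105 in the lowest, median and highest mouse and Atp5a1 (alpha) at 407, 580 and 628. Pseudogenes that match Atp5l held 272% as many normalized counts as that gene, so this lead depends on where such reads belong. Atp5b exceeded Atp5a1 in 8 of 8 mice by 0.71 ± 0.12 on the log2 scale (SD, n = 8; exact permutation test, adjusted p = 0.0117). This direction turned with the union of exons, where the mean level was 511 for Atp5a1 and 483 for Atp5b. Of the other subunits of the catalytic head and stalks, Atp5c1 (gamma) had a mean level of 400, Atp5h (d) 311, Atp5f1 (b) 302, Atp5o (the oligomycin-sensitivity protein) 258, Atp5j (F6) 193, Atp5e (epsilon) 177 and Atp5d (delta) 144. The small membrane subunits Atp5l (g), Atp5mpl, Atp5j2 (f) and Atp5k (e) had 398, 214, 123 and 105, and with the union of exons 39.2, 75.0, 41.4 and 74.0. The lowest level was that of Atp5s, a coupling factor gene outside the core enzyme, at 8.52, 10.5 and 12.6. Of 17 neighbour pairs in complex V, 6 did not differ beyond their spread, and of all 42 pairs 32 did.

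**Figure D1:**
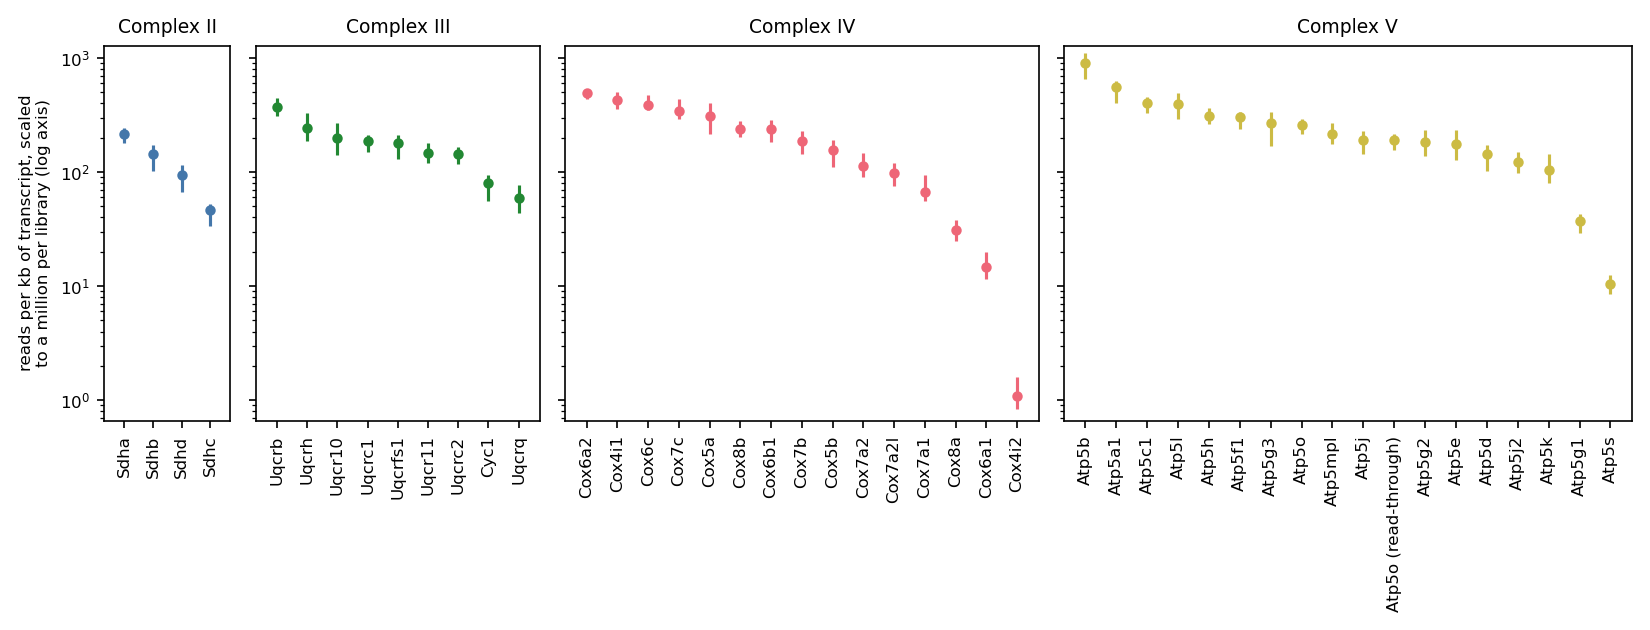
Per-length level (reads per kb of the principal transcript scaled to a sum of 1000000 per library, log axis) of the 46 members of complexes II to V with at least 10 reads in every library. Points are means over 8 mice and lines run from the lowest to the highest mouse. Atp5b lies at the top of complex V and Cox4i2 far below the rest of complex IV. Reads assigned to pseudogenes are left out.

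The muscle isoform was the more abundant in 2 of the 3 isoform pairs of complex IV that have 1 in heart and muscle. For subunit VIa, Cox6a2 exceeded Cox6a1 per length by 33.8-fold (log2 5.08 ± 0.23 SD, n = 8; exact sign-flip permutation test over 8 pairs, adjusted p = 0.00781, the smallest it can give), and the log2 ratio ran from 4.75 to 5.41 over the mice. For subunit VIII, Cox8b exceeded Cox8a by 7.72-fold, from 6.37 to 8.72 (log2 2.95 ± 0.16 SD, same exact test and p). For subunit VIIa the order was the other way, since the muscle isoform Cox7a1 had 0.59 times the level of Cox7a2, from 0.398 in mouse 3 to 0.762 in mouse 1 (log2 -0.76 ± 0.36 SD, 8 of 8 mice, same exact test and p).

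Cox7a1 (ENSMUSG00000074218) was at 617 normalized counts in mouse 1, 514, 371, 350, 455, 479 and 559 in mice 2 to 7 and 758 in mouse 8. Cox7a2 was at 1357, 1217, 1562, 1301, 1463, 1431, 1373 and 1684 in the same order. Cox7a1 was lowest in mice 4 and 3 and Cox7a2 in mice 2 and 4, so mouse 3 was low for Cox7a1 but second highest for Cox7a2. Per length, the ranges over the mice of Cox7a1 (56.2 to 94.0) and Cox7a2 (89.9 to 146) overlapped, although Cox7a1 was lower within each mouse. Cox7a2 was close to the related gene Cox7a2l, with a ratio per length of 1.17 (log2 0.23 ± 0.12 SD, n = 8, 8 of 8 mice, exact permutation test, adjusted p = 0.00781). A pseudogene that matches Cox7a2l held 17.0% as many normalized counts as the gene (14.8% to 19.3% over the mice), and none matched Cox7a2. The difference of this pair therefore holds only for reads as they were assigned.

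Among the 8 pairs tested, the largest ratio was that of subunit IV. Cox4i1 exceeded Cox4i2, an isoform known from the lung and from hypoxia, by 401-fold per length (log2 8.65 ± 0.40 SD, n = 8, exact permutation test, adjusted p = 0.00781), with ratios between 247 in mouse 7 and 537 in mouse 8. The testis isoform Cox6b2 had 19 reads in all 8 libraries and none in mouse 6, and over the pooled reads Cox6b1 was 1106-fold higher per length (95% exact Poisson interval 708 to 1836, counting error only). Cox7b2 and Cox8c, which are also testis isoforms, had 0 reads in every library. Against a floor of 3 reads per library, Cox7b was at least 494-fold higher than Cox7b2 and Cox8a at least 72.4-fold higher than Cox8c in each mouse. These 3 pairs were not tested.

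The c ring of ATP synthase is made from 3 genes that encode the same mature protein. By the principal transcripts Atp5g3 was highest at 171, 277 and 338 in the lowest, median and highest mouse, Atp5g2 had 139, 186 and 233, and Atp5g1 had 29.4, 38.6 and 42.6. Each of the 3 differences held in 8 of 8 mice (exact permutation test, adjusted p = 0.00781). The order is set by the length assumed, because the principal transcripts of Atp5g1 run from 596 to 4715 bases. With the shortest principal transcript the mean levels were 254 for Atp5g3, 289 for Atp5g2 and 279 for Atp5g1, so no order of these 3 genes is given.

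**Figure D2:**
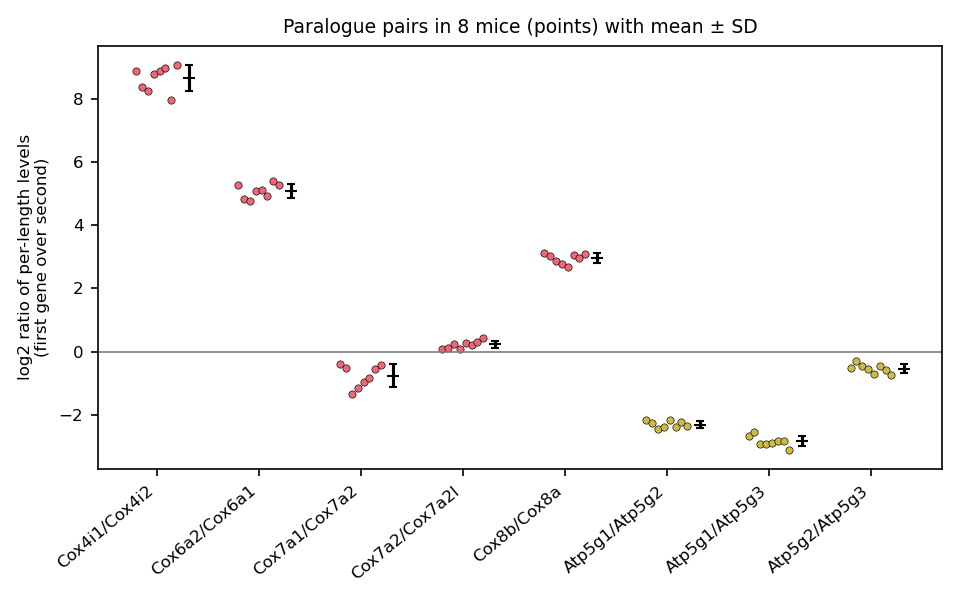
Log2 ratio of the per-length levels of 8 paralogue pairs, with a point for each of 8 mice in order of mouse number and the mean ± SD beside them. Cox4i1, Cox6a2 and Cox8b lie above their partners in every mouse, Cox7a1 lies below Cox7a2 in every mouse, and the 3 Atp5g pairs also lie below 0, where their order depends on the transcript length used.

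Upstream sequence is shown for the isoform pairs that run in opposite directions (Cox7a1 and Cox7a2, Cox8b and Cox8a) and for Cycs. The sequences are RefSeq's on GRCm38.p6, 5′ to 3′ on the strand of the gene and counted from 250 bases before the start, without bases that the annotation places in the gene. They are Cox7a1 (chr7:30183921-30184143, + strand), Cox7a2 (chr9:79759879-79760103, - strand), Cox8b (chr7:140900447-140900696, - strand), Cox8a (chr19:7217617-7217866, - strand) and Cycs (chr6:50566570-50566819, - strand). Capitals mark matches to the motif letters given at the end of these results.
Cox7a1: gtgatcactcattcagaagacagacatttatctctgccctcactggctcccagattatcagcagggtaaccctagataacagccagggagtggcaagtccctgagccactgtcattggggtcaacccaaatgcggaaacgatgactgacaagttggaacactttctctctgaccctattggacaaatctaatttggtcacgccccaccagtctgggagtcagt
Cox7a2: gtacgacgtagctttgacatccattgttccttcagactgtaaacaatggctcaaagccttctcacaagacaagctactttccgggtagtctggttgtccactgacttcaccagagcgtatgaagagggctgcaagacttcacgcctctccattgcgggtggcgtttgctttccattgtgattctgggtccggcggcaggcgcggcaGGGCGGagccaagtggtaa
Cox8b: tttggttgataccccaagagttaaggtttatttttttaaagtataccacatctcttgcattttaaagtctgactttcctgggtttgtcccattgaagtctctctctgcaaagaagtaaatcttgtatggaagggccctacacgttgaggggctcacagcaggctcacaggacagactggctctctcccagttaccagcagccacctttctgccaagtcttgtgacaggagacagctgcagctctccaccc
Cox8a: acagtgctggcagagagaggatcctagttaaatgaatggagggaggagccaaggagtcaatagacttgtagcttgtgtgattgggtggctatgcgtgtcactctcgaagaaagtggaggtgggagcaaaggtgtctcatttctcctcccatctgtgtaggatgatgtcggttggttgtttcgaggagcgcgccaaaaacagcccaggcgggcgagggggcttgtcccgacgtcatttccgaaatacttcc
Cycs: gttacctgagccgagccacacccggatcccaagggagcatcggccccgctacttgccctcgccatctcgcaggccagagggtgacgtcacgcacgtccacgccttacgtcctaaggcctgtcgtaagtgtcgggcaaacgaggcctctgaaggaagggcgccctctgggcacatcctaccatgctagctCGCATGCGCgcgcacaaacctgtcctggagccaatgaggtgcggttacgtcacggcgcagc
The Cycs window held the nuclear respiratory factor 1 letters CGCATGCGC 61 bases before the start, read on the other strand, and the Cox7a2 window held the SP1 letters GGGCGG 44 bases before it. The stretches shown for Cox7a1, Cox8b and Cox8a held none of the 5 motifs, although the full windows searched below, which run on past the start, held the ETS letters for Cox8a and the SP1 letters for Cycs. The share of G and C was 49.8% for Cox7a1, 53.8% for Cox7a2, 47.2% for Cox8b, 52.8% for Cox8a and 64.0% for Cycs.

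Reads on several members are uncertain, because 16 of the 50 have annotated pseudogenes that match their transcript at 95% identity or more over at least 100 bases, 36 pseudogenes in all, of which 25 had at least 10 reads in every library. For 13 members the pseudogenes held at least 10% as many normalized counts as the gene itself. They came to 272% of the gene for Atp5l (254% to 290% over the mice), led by Gm10221, which is identical over 309 bases, and to 168% for Atp5g2 (162% to 172%), led by Gm10175, identical over 441 bases. They came to 94.5% for Cox7c, 67.4% for Cycs, 30.2% for Atp5g1, 26.9% for Cox6c and 22.6% for Atp5f1. The rest were the Atp5o read-through model (25.8%), Cox7a2l (17.0%), Atp5h (15.4%), Uqcr11 (15.0%), Atp5o (12.1%) and Uqcrb (10.9%). How reads that match both places were assigned is not given in the sources used here, so the levels of these members may be too low. The top places of complexes IV and V and the order of neighbours that include these members hold only for reads as they were assigned. In addition 14 members share exon bases with another annotated gene, among them Atp5j with Gabpa (397 bases, opposite strand) and Atp5f1 with Wdr77 (337 bases, opposite strand), and without knowledge of the strand setting such reads cannot be told apart.

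Between mice, the normalized counts of most members were highest in mouse 8 and lowest in mouse 2 or mouse 4. The 50 genes took 0.70% ± 0.0853 of all reads (SD, n = 8), and their summed normalized counts were 210098 in mouse 1, 172946 in mouse 2, 201354 in mouse 3, 187983 in mouse 4, 211361 in mouse 5, 211592 in mouse 6, 208695 in mouse 7 and 245052 in mouse 8. Complex II alone had its highest sum in mouse 1 (22042, against 21914 in mouse 8). Mouse 8 had the highest value of 41 of the 47 members, beside 2728 of all 15135 genes. The lowest value was in mouse 2 for 27 members and in mouse 4 for 18, beside 13.5% and 10.4% of all genes. The 13 mitochondrially encoded subunit mRNAs, which took 15.3% ± 2.05 of reads, followed another order, with mouse 7 highest at 5917458 normalized counts and mouse 4 lowest at 3246686.

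The places of mice 4 and 8 depend in part on the scaling, and that of mouse 8 also on transcript length. As a share of reads the members took 0.65%, 0.55%, 0.791%, 0.713%, 0.698%, 0.732%, 0.645% and 0.817% in mice 1 to 8, so that mouse 2 was lowest and mouse 8 highest on this scale too but mouse 4 was above the median of 0.705%. The summed per-length level was highest in mouse 3 (11584) and mouse 8 (11571), and mouse 4 (10790) came next. Scaled to library totals instead of the authors' size factors, 27 members were highest in mouse 8 and 19 in mouse 3. The members have short transcripts (median 765 bases, against 3025 for 12314 other protein-coding genes), and short genes in general were high in mouse 8. Among other protein-coding genes of up to 1000 bases 41.7% were highest in mouse 8, and 62.6% of the abundant ones (mean normalized count of 1000 or more), against 8.37% of those over 2500 bases. Among members of up to 1000 bases it was 26 of 29, or 89.7%, and among the 4 members over 2500 bases (Sdha, Sdhc, Cycs and Atp5g1) it was 3. With each library's trend on transcript length removed, 29 of the 47 members, or 61.7%, were highest in mouse 8, beside 18.3% of other protein-coding genes. Among members of up to 1000 bases it was 65.5%, beside 36.4% of the abundant other genes of that length. Of the abundant other genes over 2500 bases it was 20.8%. The median member was then 0.19 above its own mean on the log2 scale in mouse 8, in place of 0.28. RNA quality was not given for these libraries, and its part was not tested.

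**Figure D3:**
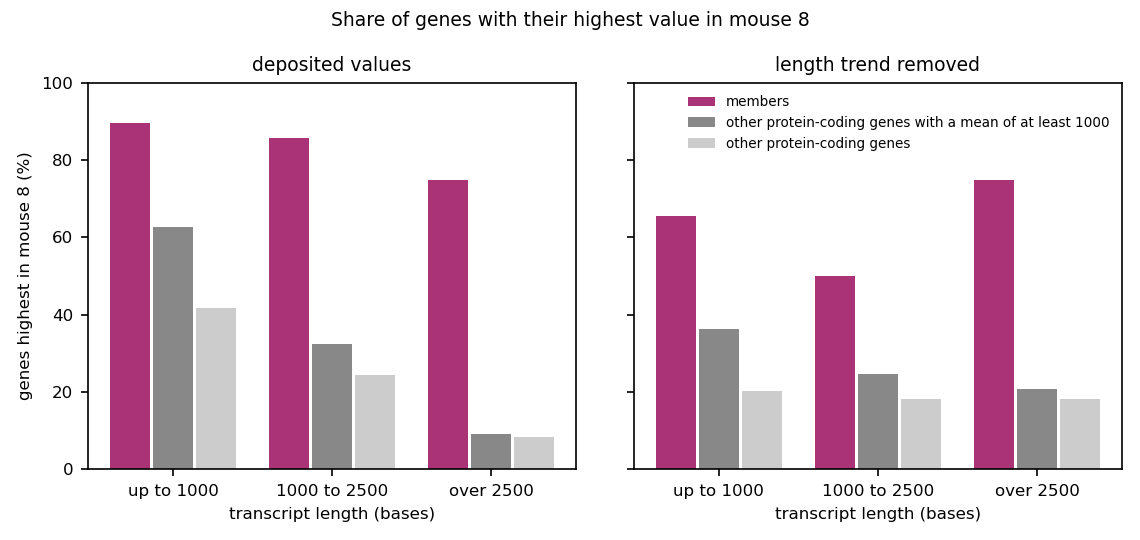
Percent of genes whose highest value was in mouse 8, by transcript length, from the deposited values (left) and with each library's trend on length removed (right). Members are compared with other protein-coding genes, of any level and those whose mean normalized count was 1000 or more. Short genes of every kind are often highest in mouse 8 in the left panel, and the bars of the members stay above the others in both panels.

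**Figure D4:**
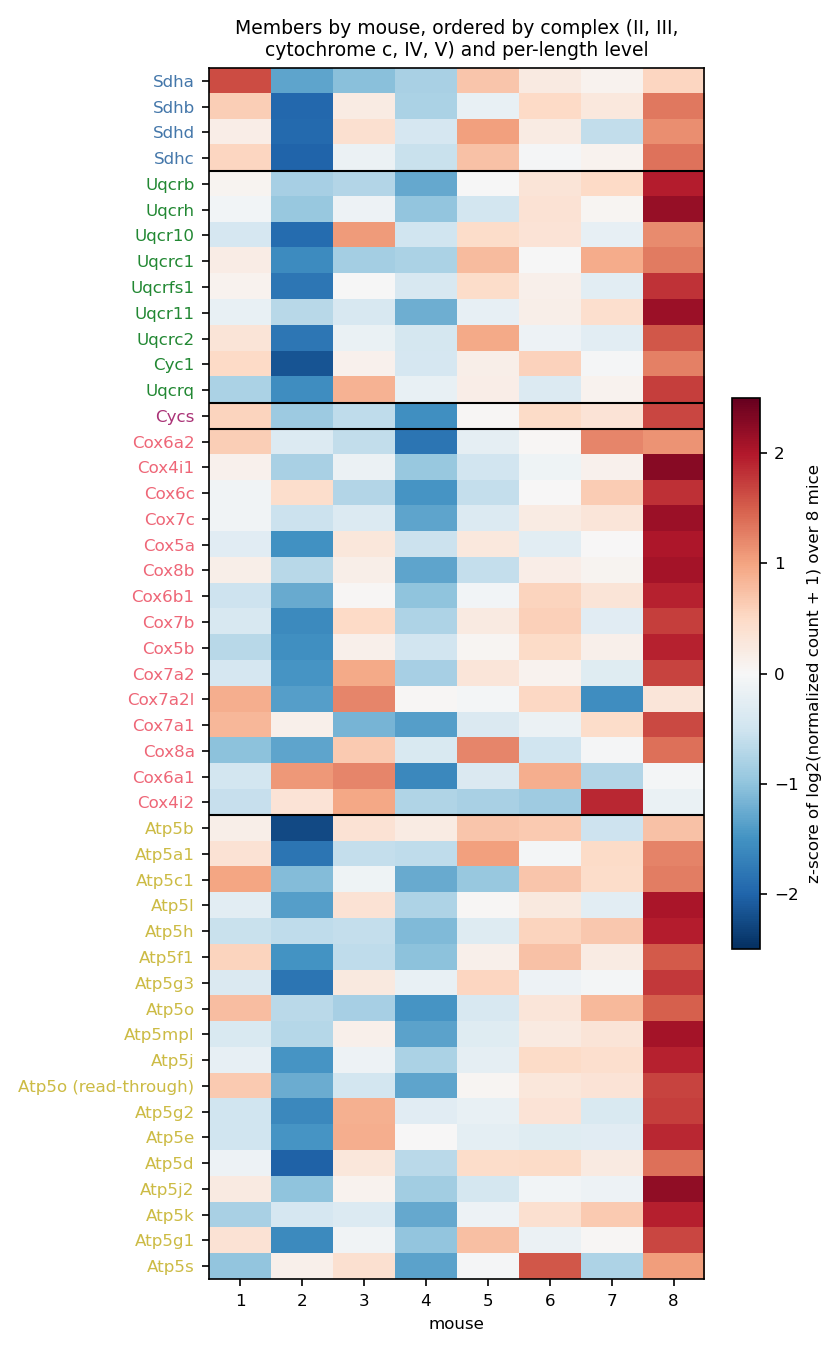
Z-score over 8 mice of log2(normalized count + 1) for the 47 members (rows, ordered by complex and per-length level; names coloured by complex) in each mouse (columns). Mouse 8 is red for most genes and mouse 2 or 4 blue, whereas Cox4i2, Cox6a1 and Cox7a2l follow other patterns.

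The spread of single members between mice was ordinary for genes of their level. The median coefficient of variation (CV) was 12.6% over 47 members and 15.6% over 15135 genes, and among genes whose mean normalized count was 1000 or more it was 12.6% for both the 41 members and all 3501 genes. In complex II the CV ran from 7.62% for Sdha, which was at 10759 normalized counts in the lowest, 12039 in the median and 13464 in the highest mouse, to 12.6% for Sdhd (1689, 2241 and 2551). In complex III it ran from 7.13% for Uqcrc2 (4546, 5121 and 5786) to 20.0% for Uqcrh (2089, 2450 and 3688). Uqcrh owed its range to mouse 8, since its next highest value was 2664.

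In complex IV the steadiest gene was Cox7a2l, with a CV of 5.93% (1796 normalized counts in the lowest, 1991 in the median and 2123 in the highest mouse). The most variable was Cox4i2 at 29.0%, of which counting error alone gives 25.7%, so that its variation between mice is not resolved at this depth. Among genes with more reads Cox7a1 was the most variable of the complex at 26.0%, with a counting error of 4.47% and a ratio of 2.17 between mouse 8 and mouse 4. In complex V the CV ran from 7.94% for Atp5s (286, 319 and 359), with a counting error of 5.63%, to 22.6% for Atp5k (559, 696 and 1099). Atp5b, which held the most reads of all members, was at 25948 in mouse 2 and between 31109 and 35413 in the other 7 mice. Cycs was at 6833, 5435, 5684, 4936, 6290, 6758, 6612 and 8150 normalized counts in mice 1 to 8, a CV of 15.8%.

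Members correlated with each other across the 8 mice, which is a description of shared libraries, with shared depth, size factor and tissue make-up. The median Pearson r over 1081 pairs of members was 0.74 (Spearman 0.64), against 0.00 over all pairs of genes. It was 0.78 within complex II, 0.77 within complex III, 0.50 within complex IV and 0.77 within complex V, and between complexes it ran from 0.53 (II with IV) to 0.80 (III with V). Mouse 8 carried part of it, for the median over members was 0.57 without mouse 8, 0.42 without both mouse 2 and mouse 8, and 0.61 with the length trend removed. Within complex IV it was 0.20 with the length trend removed, and within complex II 0.82. The members with the lowest r with the mean of the others were Cox4i2 (-0.02), Cox6a1 (0.00), Cox7a2l (0.33), Atp5s (0.49) and Sdha (0.54). Of these, Cox6a1 was at 150, 182, 185, 130, 152, 178, 145 and 158 normalized counts in mice 1 to 8, with mouse 8 in the middle. Pairs of a member and a mitochondrially encoded mRNA had a median r of 0.09, against 0.90 among the 13 mitochondrially encoded mRNAs themselves.

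Whether members varied with other features of the muscle was tested with a limma slope over the 8 mice for every gene, adjusted over all genes tested, on citrate synthase, mitochondrially encoded mRNA, the share of oxidative myosin, fibroblast markers and library depth. None of the 47 members passed an adjusted p of 0.05 in any of the 5 limma fits. On the mRNA of citrate synthase (Cs), a matrix enzyme and common marker of mitochondrial content, 0.0198% of all genes were called, namely the slow and cardiac fibre genes Myh6, Myh7 and Myl3. Cs itself was at 13025, 10280, 9570, 10367, 11793, 11357, 11287 and 12604 normalized counts in mice 1 to 8. The slope was positive for 45 of 47 members, beside 45.6% of all genes, with a median of 0.65 beside -0.06. At an unadjusted p under 0.05 there were 6 members by limma (12.8%, beside 4.43% of all genes), 6 by edgeR (beside 665 of 15134 genes) and 10 by DESeq2 (beside 701).

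The steepest slope on Cs was that of Cox7a1, at 1.91 ± 0.55 (SE, n = 8; limma, unadjusted p = 0.00491, adjusted p = 0.993). Cycs had 1.18 ± 0.40, Atp5o 1.06 ± 0.38 and Uqcrb 0.93 ± 0.39, each with a limma adjusted p of 0.993. Cox4i2 and Cox6a1 had negative slopes, of -0.85 and -0.40. Without mouse 8 the slope was positive for 38 members with a median of 0.32, and 2 members had an unadjusted p under 0.05, beside 713 of 15134 genes. With mouse 1 left out 14 members had, beside 1033 genes, and with the length trend removed 13 had, beside 766 of 15114. Without mouse 2, 4 or 6, 3 members had, beside 1213, 348 and 543 genes. With library totals the median was 1.08 over members and 0.24 over all genes.

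On the summed mitochondrially encoded mRNA, whose products assemble with these subunits, 1.61% of all genes were called by limma, which is 244 genes, and none was called without mouse 3 or without mouse 4 (1477 and 1367 genes at an unadjusted p under 0.05). The slope was positive for 27 of 47 members, beside 48.2% of all genes, with a median of 0.04 beside -0.02. It was positive for 16 members without mouse 4, with a median of -0.11, and for 36 without mouse 2, with a median of 0.18. With library totals, which moved the median over all genes to -0.64, it was positive for 5 members, with a median of -0.54. By limma 3 members had an unadjusted p under 0.05 (6.38%, beside 16.1% of all genes), as did 3 by edgeR (beside 2383 of 15122 genes) and 4 by DESeq2 (beside 2367). There was none without mouse 4 and 1 without mouse 3 or mouse 7 (2161 genes), and with library totals 15 had, beside 5158 of 15122 genes. Cox7a1 again had the steepest slope, 0.85 ± 0.27 (SE, n = 8; limma, adjusted p = 0.149), and it was called without mouse 8 (0.82, limma, adjusted p = 0.0326), where 454 of all 15122 genes were. Cox6c had 0.49 and Cox6a2 0.39, with limma adjusted p of 0.289 and 0.265. On the share of oxidative myosin (Myh7 and Myh2 of the 4 adult myosins, 5.17% to 7.75%), 0.00661% of all genes were called, which is Lcn2 alone, and 24 of 47 members had a positive slope, beside 53.2% of all genes. Without mouse 2 there were 6, and with library totals, which moved the median over all genes from 0.04 to 0.37, there were 41. Here 1 member (2.13%, beside 9.4% of all genes), Cox6c (slope -0.79 ± 0.35 SE), had an unadjusted p under 0.05 by limma, and 1 member had by edgeR (beside 1422 of 15131 genes) and by DESeq2 (beside 1431). By limma there was none without mouse 1, 3, 4, 5, 6 or 7, 3 without mouse 2 (beside 2092 of 15131 genes) and 6 without mouse 8 (beside 1640), all 6 of them positive and Cox6c not among them. On library depth 0% of genes were called and 39 of 47 slopes were positive, beside 48.8% of all genes, with no member at an unadjusted p under 0.05 in the 3 tools, beside 2.8% of all genes by limma. Without mouse 4, 9 slopes were positive and 3 members had an unadjusted p under 0.05, beside 1932 of 15135 genes. With library totals, which moved the median over all genes from -0.02 to -0.35, 7 slopes were positive.

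On the fibroblast marker score, which was lowest in mouse 8 at -1.20 and highest in mouse 2 at 1.02, 0.701% of all genes were called by limma. The slope was negative for 46 of 47 members, beside 51.3% of all genes, with a median of -0.17 beside -0.01. At an unadjusted p under 0.05 there were 25 members (53.2%, beside 17.1% of all genes), and the smallest limma adjusted p were 0.0863 for Cox5b (slope -0.26 ± 0.07 SE, n = 8), 0.0956 for Atp5k (-0.33 ± 0.09) and 0.102 for Cox5a (-0.28 ± 0.07). By edgeR none was called and 25 were at an unadjusted p under 0.05, beside 2517 of 15127 genes, whereas DESeq2 called 8, all lower with more fibroblast marker RNA, beside 522 of 15127 genes (113 lower). Without mouse 8, 3 members had an unadjusted p under 0.05 by limma, beside 1139 of 15127 genes, and the slope was still negative for 45 of 47 with a median of -0.11. Without mouse 2 there were 14, beside 2079 genes, with a median of -0.14. With library totals there were 2, beside 1832 genes, with a median of -0.13 over members and 0.04 over all genes. With the length trend removed there were 9, beside 1837 of 15107 genes, with a median slope of -0.09.

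**Figure D5:**
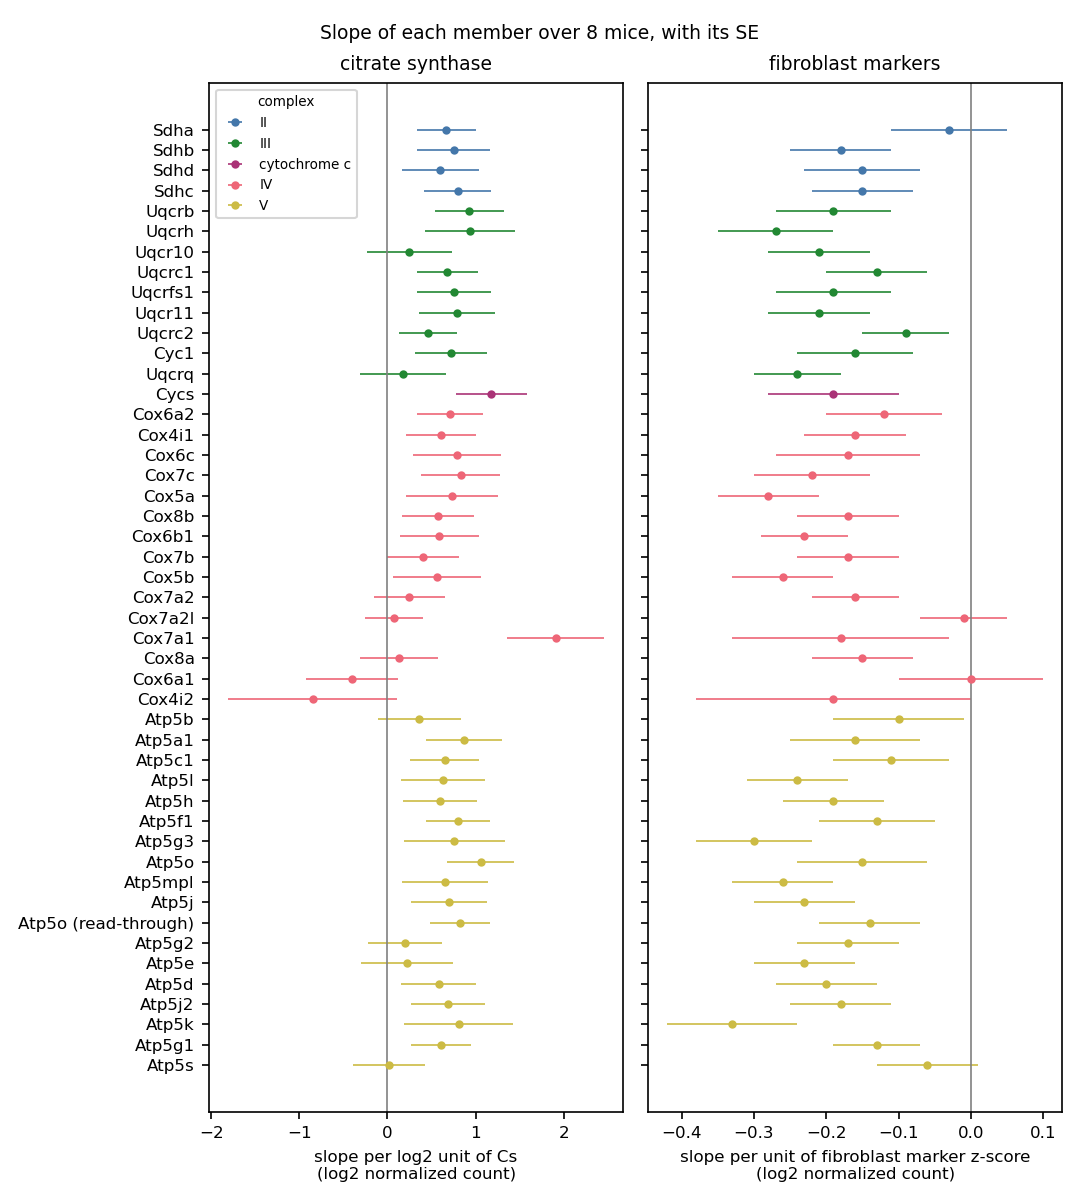
Slope of each of 47 members (log2 normalized count, with SE) per log2 unit of Cs (left) and per unit of the mean z-score of 8 fibroblast markers (right) over 8 mice, coloured by complex. Most points lie right of 0 on Cs and left of 0 on fibroblast markers, and none passed the adjusted threshold of limma.

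No gene of the other pathway lists was called in any of the 5 limma fits, in which Cs and the mitochondrially encoded genes were left out of the fits on themselves. On Cs, the slope was positive for 24 of 36 assembly factors, 13 of 13 mitochondrially encoded subunits, 9 of 9 other citric acid cycle genes and 3 of 8 regulators. On the fibroblast score it was positive for 5, 6, 2 of 10 and 5 of them. The 36 assembly factors had a median r of 0.40 with the mean z-score of the members over the 8 mice and the 10 citric acid cycle genes 0.52. Among assembly factors, the complex IV factor Higd2a (r = 0.87) and the complex III factor Uqcc2 (0.86) had the highest r and Pet117 (-0.54), Coa7 (-0.43) and Sdhaf3 (-0.42) the lowest, and among citric acid cycle genes Mdh2 had the highest (0.91) and Ogdh the lowest (-0.29). The 8 regulators had a median r of -0.38, with Esrra at 0.42, Tfam at 0.30, the coactivator genes Ppargc1a at 0.01 (CV 35.5%) and Ppargc1b at -0.32, Esrrg at -0.44, Nrf1 at -0.54, Yy1 at -0.69 and Gabpa at -0.82. Gabpa overlaps Atp5j on the opposite strand, as given above. Over the marker lists the median r was -0.78 for tendon, -0.69 for macrophages, -0.68 for fibroblasts and -0.59 for adipocytes and endothelium. For smooth muscle it was -0.42, for blood -0.28, for Schwann cells 0.04 and for satellite cells 0.17. Fast fibre markers had 0.31 and slow fibre markers 0.56. Myh6 alone of the cardiac list had 0.62, and Cidea alone of the brown adipocyte list had -0.05. These are descriptions over 8 mice with no test.

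The protein-coding genes outside the set whose pattern over the 8 mice was most like the mean z-score of the members were Ndufab1 (r = 0.997), an acyl carrier protein that is also a subunit of complex I, Tinf2 (0.988), a telomere-binding protein gene, Cisd1 (0.986), an iron-sulphur protein of the outer mitochondrial membrane, Ndufa11 (0.98), a complex I subunit, and Gm49356 (0.979). They were taken from 12314 genes, of which 48 had an r over 0.9 and whose median r was -0.06.

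Promoters of 36 members were found in RefSeq's table for GRCm38.p6, from 250 bases before to 50 after the start. The other members, among them Cox4i1, Cox4i2 and Cox6a2, had no entry there and were not searched. The letters of nuclear respiratory factor 1, GCGCANGCG, a factor known to act on respiratory genes, were in 12 of 36 (33.3%), beside 6.47% of 27025 promoters of the same length. The ETS letters CCGGAAG, which GABPA binds, were in 11 (30.6% beside 9.12%), the ESRRA letters AAGGTCA in 5 (13.9% beside 4.66%), the YY1 letters AANATGGC in 4 (11.1% beside 6.23%) and the SP1 letters GGGCGG in 14 (38.9% beside 35.9%). Both strands were searched, and none of these strings contains another. The nuclear respiratory factor 1 letters were found in promoters of complex II (Sdha, Sdhd), complex III (Uqcrc1, Uqcr11), Cycs, complex IV (Cox6a1 alone of those with an entry) and complex V (Atp5g2, Atp5g3, Atp5h, Atp5k, Atp5l, Atp5o). Sdhd, Atp5k and Atp5l held those of nuclear respiratory factor 1, ETS and ESRRA. A match is a description of letters and not of binding.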

How the data were processed

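Poly-A RNA libraries (Universal Plus mRNA-Seq NuQuant) of 8 mice were sequenced on a NextSeq. Per the labels and methods, the authors used FastQC, fastp, STAR (GRCm38.p6), summarizeOverlaps and DESeq2; the annotation release, strand setting and handling of reads with several matches are not given in the sources used here. The signal values the authors deposited are counts divided by 1 size factor per library (0.906 to 1.20). Whole reads were recovered for 100% of nonzero values (tolerance 0.01) and used for depth (23985356 to 33012497), filters and count tests; raw counts had been assumed. No library repeated another (chi-square per degree of freedom of 28 pairs 16.1 to 119).

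Symbols, positions and lengths came from GENCODE M21 (55227 of 55487 identifiers). Slopes were fitted with limma 3.58.1 on log2(value + 1), for genes with at least 10 reads in every library, with Benjamini-Hochberg adjustment. Simulated slopes on Cs of 0.5 per SD were recovered for 63 of 69 genes, of 0.25 for 12 of 57, with 5 false calls among 15135 genes. These are per SD of log2 Cs, which ran only from 13.22 to 13.67, whereas the slopes reported are per log2 unit. Slopes as shallow as the median of 0.65 of the members were not simulated, so recovery at that size is not known. Alternatives were TMM (edgeR 4.0.16), library totals, pseudocount 5, no filter, edgeR and DESeq2 1.42.0 on recovered counts, other lengths, a minimum of 100 reads, Spearman and leaving out each mouse. Removal of length trends (linear and quadratic in log2 length per library), the shortest principal transcript and leaving out mice 2 and 8 were added after seeing the data. Pseudogenes were matched with BLAST 2.17.0. Intervals and floors cover counting error only. The 8 pseudogene symbols of these families were left out as not protein-coding.

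Genes named were both genes of each paralogue pair, the highest and lowest level and CV of each complex, Cycs and called or leading members; Higd2a, Uqcc2, Pet117, Coa7, Sdhaf3, Mdh2, Ogdh, the members with the lowest r, and single members of the slope fits were chosen after their values were seen. The members and lists were chosen with earlier results of these data known.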

Additional observations from a re-analysis of the deposited data

Results flagged for a closer look

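Each of 60 sets of 8 values (47 members, 5 sums and 8 paralogue ratios) was examined for a mouse whose gap to the nearest other was large against the whole range, by Dixon's 95% limit, which chance passes in about 1 of 20 sets. Of these, 11 passed, and in 10 of them mouse 8 was the high value. In complex III these were Uqcr11, at 1654 normalized counts in mouse 8 and 1031 to 1298 in the others, and Uqcrh, at 3688 against 2089 to 2664. In complex IV they were Cox4i1, at 7974 against 5576 to 6268, Cox5a, at 5287 against 2890 to 3933, Cox7c, at 4828 against 2872 to 3662, and Cox8b, at 2077 against 1395 to 1661. The sum over complex IV was 48651 in mouse 8 and 33425 to 39826 in the others. In complex V they were Atp5j2, at 2947 against 1937 to 2272, Atp5l, at 5522 against 3287 to 4280, and Atp5mpl, at 2038 against 1191 to 1548. The remaining one was the low value of Atp5b in mouse 2, at 25948 against 31109 to 35413. These sets share their libraries and are not independent, and the cause was not tested.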

How the results depend on the processing

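No paired analysis was possible because there is only 1 group. The count of members called stayed at 0 in each slope fit and alternative except 2 (Atp5b and Cox7a2l, both lower) on mitochondrially encoded mRNA with library totals, 8 on fibroblast markers with DESeq2, and 0 to 1 over the left-out mice on mitochondrially encoded mRNA (Cox7a1, without mouse 8). Over all genes, calls on Cs were 3 against 0 with library totals and 20 with DESeq2, on mitochondrially encoded mRNA 244 against 2040 and 710, 0 without mouse 3 or 4, 66, 102, 117, 148 and 454 without mice 7, 2, 1, 6 and 8, on oxidative myosin 1 against 4 with library totals or no filter, 0 with edgeR and 120 with DESeq2, and on fibroblast markers 106 against 68 with edgeR, 522 with DESeq2, 64 with the length trend removed and 0, 9, 10, 39, 51 and 166 without mice 8, 2, 1, 7, 6 and 3. Over the left-out mice there were 0 to 1 on Cs, 0 to 17 (without mouse 1) on oxidative myosin and 0 to 2 (without mouse 4) on depth. With library totals, members at an unadjusted p under 0.05 numbered 2 against 25 on fibroblast markers and 15 against 3 on mitochondrially encoded mRNA. The Atp5g pairs depended on the length. Atp5g2 over Atp5g3 was -0.53 on the log2 scale, -0.12 with the union of exons and 0.20 with the shortest principal transcript, Atp5g1 over Atp5g2 -2.30 and -0.04, and Atp5g1 over Atp5g3 -2.83 and 0.16. The other 5 pairs kept their direction and call at each length and with each mouse left out, but the assignment of pseudogene reads was not varied. With the union of exons, 27 of 47 mean levels stayed within 1.5 times of their value, Atp5a1 exceeded Atp5b, and 30 neighbour pairs passed, against 32 and 29 to 32 over the left-out mice. The median CV was 7.54% and the median r 0.42 without mice 2 and 8 (9.18% to 13.7% and 0.57 to 0.78 over single left-out mice, lowest without mouse 8), and 27 members were highest in mouse 8 with library totals. The cause of these changes was not tested. Depth limits Cox4i2, Cox6b2, Cox7b2 and Cox8c most.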
